A study of Homo sapiens with 2 samples.

Results

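Endocytosis and membrane sorting genes were followed among the transcripts assigned to ALKBH5 in HL-60, a cell line from a human promyelocytic leukaemia. The members were all symbols that the authors' KEGG table entered under Endocytosis, apart from CXCR4. They numbered 125 symbols on 115 gene identifiers, of 5614 symbols on 5237 identifiers in the GO and KEGG tables together. They were chosen by the listing itself, so that these genes are listed is no result. They were placed in the roles of clathrin and adaptors (26 symbols), ESCRT (14), ARF and RAB regulators (42), retromer and sorting nexins with the WASH complex (9), and receptors with class I histocompatibility molecules (12). A further 9 symbols of actin, polarity and motor genes and 13 of ubiquitin ligases and signalling genes fell outside those roles.

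RNA bound by ALKBH5, an enzyme that removes N6-methyladenosine (m6A) from RNA, was sequenced from a single line under a single condition. The ALKBH5 immunoprecipitate (IP) took 80% of the lysate and the input 10%, with 1 library of each; a rabbit IgG portion of 10% was not analysed here. Both libraries carry ALKBH5 as the genotype label, no treatment is given for either, and the titles name the opposite group to the library names, which were used. Both library names begin with Ctrl. The tables hold no read count, peak height or level per library, so a gene is described as listed or not listed, its depth is unknown, and no IP to input difference can be given. A gene with a peak but in none of the 311 GO terms and 38 KEGG pathways listed would not appear among them, so not listed does not mean without a peak. Of 9 promyelocyte markers, 4 were listed (MPO, PRTN3, CD33 and CEBPA) and ELANE, AZU1, CTSG, MYB and KIT were not. Of 3 monocyte markers CD14 and CSF1R were listed and CD163 was not. All 3 epithelial markers were listed (EPCAM, KRT8 and KRT18), and 0 of 4 T cell, 0 of 3 B cell and 0 of 3 erythroid markers were. What part RNA of other cells had in the lists was not tested.

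Endocytosis brings membrane and receptors into the cell in vesicles. Clathrin and its adaptors shape a pit around cargo, dynamin cuts it off, and HSP70 chaperones strip the coat. On endosomes the cargo is then sorted: ESCRT complexes send ubiquitinated receptors to lysosomes, retromer and sorting nexins return cargo to the Golgi or the surface, and small GTPases of the ARF and RAB families set the identity and traffic of each membrane. In neutrophils and their precursors the same machinery serves the uptake of particles and the handling of granules.

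In the authors' deposited table Endocytosis had 126 entries, CXCR4 included, against 244 background genes, with a rich factor of 1.55, a p-value of 0.00313 and a corrected p of 0.127. It was the eighth of 38 listed pathways by p-value, and 2 of the 38 had a corrected p under 0.05 in the authors' deposited table. The 126 entries stood on 116 identifiers, or 47.5% of the background genes (exact 95% interval 41.1 to 54.0%, for counting error only), against 51.6% by entries.

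Some entries were transcripts that carried another gene's identifier. Of the 125 symbols, 113 stood on their own identifier and 12 on that of another gene. They included 8 clone names with no match in RefSeq: AC073610.5 and RP11-302B13.5 with the identifier of ARF3, CTD-2231E14.8 with that of RAB8A, AC007292.6 with that of SH3GL1, AC004893.11 with that of SMURF1, RP11-138I1.4 with that of UBB, FO538757.1 with that of WASHC1 and RP11-231C18.3 with that of PDGFRA. The other 4 were HSPA1A on the identifier of HSPA1B, FAM21C on that of WASHC2A, and the antisense transcripts ARAP1-AS2 and AGAP2-AS1. In 2 cases the gene that owns the identifier was itself not named: the receptor tyrosine kinase PDGFRA was present only through RP11-231C18.3, and AGAP1 only through AGAP2-AS1. Symbols exceeded identifiers by 10 among the members (8.0% of symbols) and by 377 among all GO and KEGG symbols (6.72%).

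The antisense entries overlap members. AGAP2, a GTPase-activating protein for ARF proteins, spans bases 57723761 to 57742161 of chromosome 12 (GRCh38.p14). All 2117 bases of AGAP2-AS1 (57726240 to 57728356) fall inside that span. ARAP1, another ARF GTPase-activating protein, spans bases 72685069 to 72752408 of chromosome 11 and contains all 5134 bases of ARAP1-AS2 (72700474 to 72705607). The library kit kept strand, per the labels' protocols. Whether peaks were assigned with regard to strand is not given in the sources used here, so a peak of either transcript of such a pair cannot be told apart from one of its partner.

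To see which genes of the pathway were not in the row, 261 endocytosis genes written from textbook knowledge were set beside it. The authors' term has 244 background genes, so not every written gene could be in the row. Which written genes lie outside the term was not checked, apart from the 7 named below, and the shares by role carry this limit. As written, 108 were members (41.4%, exact 95% interval 35.3 to 47.6%), and 25.9% of all protein-coding RefSeq genes were listed in some GO or KEGG term. Since the row defined the members, nothing is read from that difference. A further 4 genes were members under older symbols, 7 were named only in other terms, and 142 were named in none of the tables. The 7 were RAB7B, FKBP15, ADRB1, CSF1R, RET, TGFB1 and SMAD7. They had entries elsewhere but none in the row, so the authors' term did not hold them under the identifiers they carried. Of these, 4 are among the 44 receptor genes. The plot of listing status by role shows these counts.

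**Figure D1:**
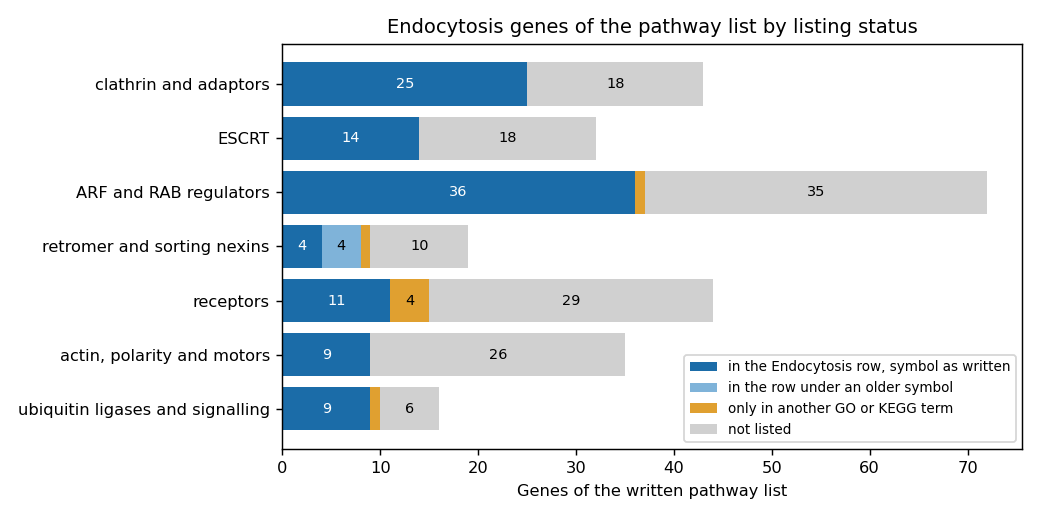
Genes of a written list of 261 endocytosis genes by role, with bar length as the number of genes. Dark blue counts genes in the Endocytosis row, light blue those in it under an older symbol, orange those named only in another GO or KEGG term and grey those not listed; 25 of 43 clathrin and adaptor genes and 11 of 44 receptor genes were in the row.

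Clathrin and adaptor genes were present in 25 of 43 cases (58.1%, exact 95% interval 42.1 to 73.0%). Clathrin forms the lattice of the coat, and 3 of its 4 chains were listed: the heavy chains CLTC and CLTCL1 and the light chain CLTA, but not the light chain CLTB. Of the 5 subunit genes of AP-2, the adaptor that ties clathrin to cargo and membrane, the large subunits AP2A1, AP2A2 and AP2B1 were listed, and the medium AP2M1 and small AP2S1 were not. All 3 dynamins, the GTPases that pinch vesicles off, were listed (DNM1, DNM2 and DNM3), as were both beta-arrestins, ARRB1 and ARRB2, which link phosphorylated receptors to the coat. The receptor kinases that prepare this step were listed in 3 of 7 cases (GRK2, GRK5 and GRK6).

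Other adaptor members were EPN1, an epsin that bends membrane, EPS15L1, a scaffold of the pit, SH3KBP1, which couples CBL ligases to endophilin, and SH3GL1, the 1 endophilin listed of 5. DNAJC6, or auxilin, brings HSP70 to the coat. Adaptor genes named in none of the tables included AMPH, BIN1, CLTB, DAB2, EPN2, EPN3, EPS15, GRK1, GRK3 and GRK4.

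HSP70 chaperones, which uncoat vesicles and fold proteins at large, were listed in 5 of 6 cases: HSPA8, the constitutive form, and HSPA1A, HSPA1B, HSPA2 and HSPA6. HSPA1A and HSPA1B stood on a single identifier and are near-identical copies on chromosome 6, at 31815543 to 31817942 and 31827738 to 31830254 (GRCh38.p14). Reads of the shared parts cannot assign a peak to either copy, so the listing of each is uncertain. Their promoter windows from RefSeq (GRCh38.p14, 250 bases before to 50 after the start) are shown because the likeness of the copies reaches beyond the transcript, with 277 of 301 alignment columns identical (92.0%). Both are on the plus strand, at chr6:31815293-31815592 for HSPA1A and chr6:31827488-31827787 for HSPA1B. Capitals mark a heat shock element core (GAANNTTC) and a TATA box (TATAAA).
HSPA1A: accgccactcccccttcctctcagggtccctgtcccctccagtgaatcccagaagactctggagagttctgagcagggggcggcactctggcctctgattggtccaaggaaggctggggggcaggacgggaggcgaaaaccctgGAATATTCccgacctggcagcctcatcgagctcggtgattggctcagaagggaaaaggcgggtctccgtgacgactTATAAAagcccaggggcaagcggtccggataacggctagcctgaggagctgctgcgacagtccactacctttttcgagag
HSPA1B: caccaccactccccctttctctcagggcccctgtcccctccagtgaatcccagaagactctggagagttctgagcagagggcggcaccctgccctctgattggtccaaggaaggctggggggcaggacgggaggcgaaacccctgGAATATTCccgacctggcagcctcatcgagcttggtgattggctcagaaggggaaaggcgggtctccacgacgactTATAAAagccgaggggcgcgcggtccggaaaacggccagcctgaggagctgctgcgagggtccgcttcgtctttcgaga
The heat shock element core was found, on either strand, in 6.77% of all 35116 promoter windows and in 6.11% of the 131 windows of members. The TATA box was in 11.5% of all windows and 4.58% of member windows. Each match is a description of the letters and not of binding. Among 4753 pairs of the 98 member genes with a window, the median identity was 48.4%, and 7 pairs reached 70% or more. All 7 lay within HSPA1A and HSPA1B or within the class I molecules HLA-B, HLA-C, HLA-F and HLA-G.

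ESCRT genes sort ubiquitinated cargo into vesicles inside the endosome, and 14 of 32 were listed (43.8%, exact 95% interval 26.4 to 62.3%). The first complex, which captures ubiquitinated cargo, was present with HGS and STAM but without STAM2. Of 8 genes of the second complex, TSG101 and MVB12A were listed, and of the 3 of the third, VPS25 was. The membrane-cutting ESCRT-III filaments were listed in 5 of 12 cases (CHMP1A, CHMP1B, CHMP6, CHMP7 and the related IST1), and CHMP2A, CHMP2B, CHMP3, CHMP4A, CHMP4B, CHMP4C and CHMP5 were not. The ATPases VPS4A and VPS4B, which take the filaments apart, and their cofactor VTA1 were all listed, so these 3 genes of disassembly were complete. PDCD6IP, or ALIX, which recruits ESCRT-III, completed the group, and the deubiquitinases STAMBP and USP8 were named in none of the tables.

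ARF and RAB regulators formed the largest group, with 36 of 72 genes in the row (50%, exact 95% interval 38.0 to 62.0%). ARF proteins are GTPases that recruit coats and remodel lipids, and ARF3 and ARF6 were listed of 4. Of 19 ARF GTPase-activating proteins, which switch ARF off, 11 were listed: ACAP1, ACAP3, AGAP2, AGAP3, ARAP1, ARAP3, ARFGAP1, ARFGAP2, ASAP2, GIT1 and GIT2. Of 14 exchange factors, which switch ARF on, 7 were listed: ARFGEF1, ARFGEF2, CYTH2, CYTH4, GBF1, IQSEC2 and PSD4. The lipid enzymes PIP5K1A, PIP5K1C and PLD1, which act with ARF6 at the membrane, were 3 of 6. Not listed by symbol were ARF1 and ARF5, ACAP2, AGAP1, ARAP2, ARFGAP3, ASAP1, ASAP3, CYTH1 and CYTH3. The identifier of AGAP1 was present through AGAP2-AS1 only.

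RAB GTPases mark single compartments, and 4 of 13 were members: RAB7A of late endosomes, RAB8A and RAB10 of surface delivery, and RAB11A of recycling endosomes. None of the 3 RAB5 genes, the RABs of early endosomes, was listed (0%, exact 95% interval 0 to 70.8%), nor was their tether EEA1. This gap was picked out after the values were seen. Other early endosome factors were listed, namely RBSN, a RAB5 effector, its partner VPS45, and RUFY1. Recycling genes were present with 3 of 5 RAB11 interactors (RAB11FIP1, RAB11FIP3 and RAB11FIP4). Of the EHD proteins, which shape membranes, 3 of 4 were listed (EHD1, EHD2 and EHD4), while EHD3 was not. ZFYVE27, or protrudin, which binds RAB11, completed the group.

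Retromer and sorting nexin genes were in the row in 4 of 19 cases as written (21.1%, exact 95% interval 6.05 to 45.6%) and in 8 (42.1%) once older symbols were read. The retromer core, which binds cargo, was listed with VPS35 and VPS26A, but VPS26B and VPS29 were not. Of 8 sorting nexins, which coat the tubules, the paired SNX1 and SNX2 were listed, and SNX3, SNX4, SNX5, SNX6, SNX12 and SNX32 were not. The WASH complex, which grows actin on endosomes, was listed in 4 of 6 genes and only under older symbols: WASH1 for WASHC1, FAM21A and FAM21C for WASHC2A and WASHC2C, and KIAA1033 for WASHC4. WASH1 and both FAM21 genes belong to families of near-identical copies, and FO538757.1 shared the identifier of WASH1, so which copy carried a peak is uncertain.

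Receptors and other cargo were listed in 11 of 44 cases (25%, exact 95% interval 13.2 to 40.3%). Class I histocompatibility molecules, which show peptides to T cells and are recycled by endocytosis, included HLA-B, HLA-C, HLA-E, HLA-F and HLA-G on chromosome 6. The transferrin receptor TFRC, which takes up iron, and IGF2R, which carries lysosomal enzymes, were also listed. Of 15 receptor tyrosine kinases, EGFR and IGF1R were members, and 2 more, CSF1R and RET, were named in other terms. Among 5 cytokine and TGF-beta receptors 0 were listed, and among 7 G protein coupled receptors 0 were in the row and 1, ADRB1, was in another term. ADRB3, CXCR1, CXCR2, EGF, ERBB3, ERBB4, F2R, FGFR2, FGFR3 and FGFR4 were among those named in none of the tables.

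How surely a peak can be placed on each class I gene is uncertain, and transcript sequences were not compared. Promoter windows, mostly before the start of the transcript, do not settle it and are given as a description only. Promoter windows of HLA-B and HLA-C from RefSeq (GRCh38.p14, minus strand) were identical in 269 of 304 alignment columns (88.5%), the most alike pair among the class I genes with a window, and are shown for that reason. They lie at chr6:31357130-31357429 for HLA-B and chr6:31272043-31272342 for HLA-C. Capitals mark an interferon response core (GAANNGAAA, here read on the opposite strand) and CCAAT boxes (CCAAT, on either strand).
HLA-B: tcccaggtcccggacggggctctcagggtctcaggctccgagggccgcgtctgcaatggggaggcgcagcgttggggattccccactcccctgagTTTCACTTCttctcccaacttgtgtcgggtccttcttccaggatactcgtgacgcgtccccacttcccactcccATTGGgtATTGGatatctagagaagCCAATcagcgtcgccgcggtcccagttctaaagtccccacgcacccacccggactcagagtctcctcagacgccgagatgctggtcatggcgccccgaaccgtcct
HLA-C: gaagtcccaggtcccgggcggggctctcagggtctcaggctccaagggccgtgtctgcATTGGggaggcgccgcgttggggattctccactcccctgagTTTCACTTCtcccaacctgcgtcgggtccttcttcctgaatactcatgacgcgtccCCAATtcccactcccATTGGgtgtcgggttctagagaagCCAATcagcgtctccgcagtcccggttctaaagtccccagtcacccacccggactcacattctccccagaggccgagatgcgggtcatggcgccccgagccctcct
The interferon response core occurred in 7.66% of all promoter windows and in 3.05% of member windows, and the CCAAT box in 34.6% and 39.7%. Sequences are those of the reference genome, not of the HL-60 alleles.

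Actin, polarity and motor genes were listed in 9 of 35 cases (25.7%, exact 95% interval 12.5 to 43.3%). They were ARPC4 and ARPC5, 2 of 10 genes of the ARP2/3 complex that branches actin, the capping subunits CAPZA1 and CAPZA2, the GTPase CDC42, its targets WAS and PARD6B, the kinase PRKCZ, and WIPF2, a partner of WASP proteins. ACTR2, ACTR3, ARPC1A, ARPC1B, ARPC2 and ARPC3 were not listed, and 0 of 3 caveolins and 0 of 3 KIF5 kinesins were. Ubiquitin ligases and signalling genes were in the row in 9 of 16 cases (56.2%, exact 95% interval 29.9 to 80.2%). Among ubiquitin ligases, which tag receptors for ESCRT, 7 of 10 were listed: CBL, CBLB, ITCH, MDM2, NEDD4, SMURF1 and SMURF2. The tyrosine kinase SRC and the GTPase HRAS were also members, as were the ubiquitin precursor UBB and the nuclear body protein PML. NEDD4L, TRAF6, WWP1, SMAD2, SMAD3 and SMAD6 were named in none of the tables.

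A second deposited table, not used to choose the members, pairs symbols with 4 families of RNA-binding proteins; how it was made is not given in the sources used here. It named 23 of the 125 members (18.4%, exact 95% interval 12 to 26.3%), against 19.8% of all GO and KEGG symbols. The members as a whole were thus near the background. By role, ARF and RAB regulators held 12 of 42 (28.6%, 15.7 to 44.6%) and clathrin and adaptors 6 of 26 (23.1%, 8.97 to 43.6%). ESCRT held 0 of 14 (upper limit 23.2%) and the retromer group 0 of 9 (upper limit 33.6%). Receptors held 2 of 12 (16.7%, 2.09 to 48.4%), actin, polarity and motor genes 1 of 9 (11.1%, 0.281 to 48.2%) and the ubiquitin group 2 of 13 (15.4%, 1.92 to 45.4%). The interval of every role contained the 19.8% of all listed symbols, and differences between roles were not tested.

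Within the regulators the named symbols lay on the ARF side. Of 24 symbols of ARF GTPases and their activating and exchange factors, 11 were named (45.8%, exact 95% interval 25.6 to 67.2%), and of 15 symbols of RAB GTPases, their effectors and EHD proteins 0 were (upper limit 21.8%). The 11 were ACAP3, AGAP2, AGAP2-AS1, AGAP3, ARAP3, ARF3, ARF6, ARFGAP1, ARFGAP2, CYTH2 and PSD4, with PLD1 as the twelfth of the group. This split was made after the values were seen, and the difference was not tested. AGAP2 and AGAP2-AS1 occupy a single locus and were paired with the same 3 families. The plot of shares in the family table shows the roles against the background.

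**Figure D2:**
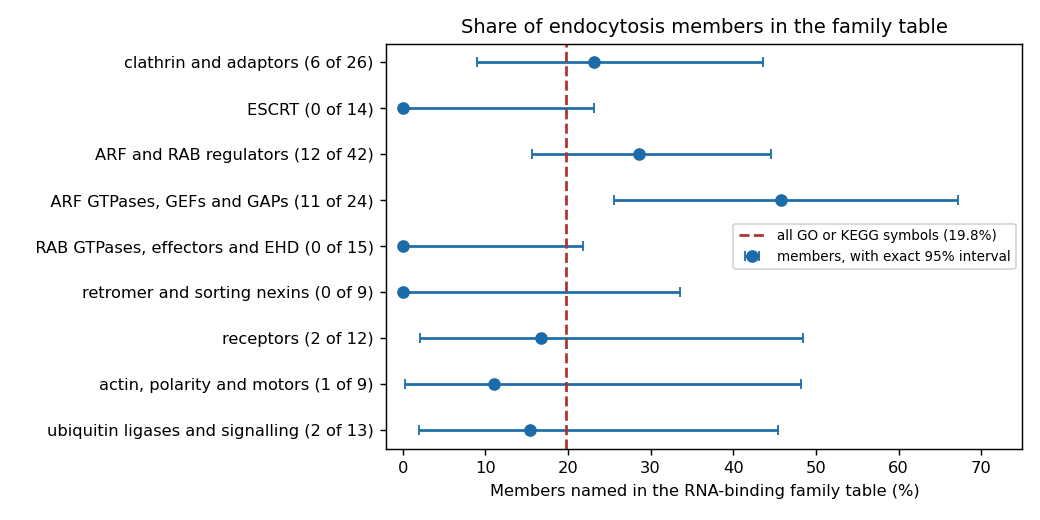
Share of members named in the RNA-binding family table by role, in percent, as points with exact 95% binomial intervals; the dashed line is the 19.8% of all GO and KEGG symbols. The ARF GTPases with their GEFs and GAPs lie at 45.8%, and the ESCRT, retromer and RAB sets lie at 0.

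Other members in that table were CLTCL1, DNAJC6, DNM3, EPN1, HSPA1A and HSPA1B of the clathrin group, the receptor IGF1R, PARD6B, MDM2 and AC004893.11. SMURF1 itself was not in it, although AC004893.11, on the identifier of SMURF1, was paired with all 4 families. ARF3 was named and AC073610.5 and RP11-302B13.5, on its identifier, were not. All 4 families were paired with 13 of the 125 members (10.4%, exact 95% interval 5.65 to 17.1%), against 12.6% of all GO and KEGG symbols. AGAP2, AGAP2-AS1 and AGAP3 lacked the PUF family, a pattern seen in 3 of the 23 named members (13.0%) and in 45 of all listed symbols in the table (4.05%). The other 7 named members lacked the family that combines a CCHC zinc finger with an RRM (30.4%), against 24.7% of all listed symbols in the table.

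The members also shared other deposited terms. Each member had a median of 7 GO or KEGG terms beside Endocytosis (quartiles 5 and 11, highest 28), against 4 (quartiles 2 and 8, highest 40) for the other 5488 listed symbols. The rule took members with a KEGG annotation, which the other symbols need not have, so nothing is read from that difference and it was not tested. HSPA1A, HSPA1B and HSPA8 had the most, with 28 each, and ARFGAP1 was the only member with no other term. The median was 15 for ubiquitin ligases and signalling genes and 5 for ARF and RAB regulators.

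The GO terms that held most members were broad compartments. Cytosol held 91 members (72.8%, against 43.9% of all listed symbols), cytoplasm 52 (41.6%, against 35.3%), membrane 44 (35.2%, against 19.5%), perinuclear region of cytoplasm 27 (21.6%, against 6.39%) and intracellular membrane-bounded organelle 26 (20.8%, against 6.84%). Nucleoplasm held 32 (25.6%, against 34.5%) and nucleus 31 (24.8%, against 41.3%). Endosome membrane held 24 members (19.2%, against 1.98%), which made up 21.6% of its 111 entries. ATP binding held 21 (16.8%, against 14.6%), among them kinases, HSP70 chaperones and the VPS4 ATPases, and focal adhesion 19 (15.2%, against 3.54%). Membrane traffic is how the term was defined, so high shares in such compartments describe the annotation of these genes and were not tested.

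Some narrower terms were picked out after the values were seen, and their spread over the roles was not tested. Their shares describe annotation and were not tested either. Macroautophagy, the pathway that engulfs cell contents for lysosomal breakdown, held 10 members (8.0%, against 1.6% of all listed symbols), 9 of them ESCRT genes: CHMP6, HGS, MVB12A, STAM, TSG101, VPS25, VPS4A, VPS4B and VTA1. They were 11.1% of its 90 entries, and the tenth was SRC. The KEGG pathway Autophagy held 3 members (HRAS, IGF1R and RAB7A; 2.4%, against 2.07%) and no ESCRT gene. Mitotic metaphase plate congression held 8 members (6.4%, against 0.445%), 7 of them ESCRT genes, or 32.0% of its 25 entries. Flemming body, the centre of the bridge between dividing cells, held IST1, PDCD6IP, TSG101, VPS4A and VPS4B beside AGAP2 and ARF6 (5.6% of members, against 0.41%), and midbody 9 members (7.2%, against 1.5%), of which 3 were ESCRT genes and 4 ARF and RAB regulators.

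GTPase activator activity held 14 members (11.2%, against 2.8%), of which 13 were ARF regulators, the exchange factor ARFGEF1 and the antisense AGAP2-AS1 and ARAP1-AS2 included, and the other was ARRB1. Positive regulation of GTPase activity held the same 14 and HRAS (12% of members, against 2.73%). Retrograde transport from endosome to Golgi held 12 (9.6%, against 0.873%), with 8 of the 9 symbols of the retromer group. Endocytic recycling held ARF6, EHD1, EHD2, EHD4, RAB11FIP3 and RAB11FIP4 (4.8%, against 0.481%), all regulators. Protein polyubiquitination held 9 (7.2%, against 2.42%), all of them ubiquitin ligases, UBB, or clone names on the identifiers of SMURF1 and UBB. Ubiquitin protein ligase binding held 15 (12%, against 3.58%), among them both beta-arrestins, 4 HSP70 chaperones, EGFR, TSG101 and WASH1. Intracellular protein transport held 16 (12.8%, against 2.49%), with clathrin chains, AP-2 subunits, ARF3 and ARF6 entries, retromer and both sorting nexins. Cadherin binding held 13 (10.4%, against 3.28%), from all 7 roles, and viral process 12 (9.6%, against 5.18%), class I molecules among them. Antigen presentation through MHC class II held 9 (7.2%, against 0.962%): AP2A1, AP2A2, AP2B1, CAPZA1, CAPZA2, CLTA, CLTC, DNM2 and RAB7A. The terms of this paragraph were also picked out after the values were seen. Members carried more terms each than other listed symbols (medians of 7 and 4 beside Endocytosis). These shares describe annotation, so nothing is read from them, and they were not tested.

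Terms close to neutrophil functions held members of several roles. Of the terms in this paragraph, neutrophil degranulation, Phagosome and RNA binding were picked out after the values were seen. The shares describe annotation and were not tested. Neutrophil degranulation, the release of granule contents, held 13 members (10.4%, against 4.22% of all listed symbols): AP2A2, ARPC5, HLA-B, HLA-C, HSPA1A, HSPA1B, HSPA6, HSPA8, IGF2R, IST1, PLD1, RAB10 and RAB7A. They were 5.49% of its 237 entries. Fc gamma R-mediated phagocytosis, the uptake of antibody-coated particles, held 10 members (8.0%, against 0.908%): ARF6, ARPC4, ARPC5, ASAP2, CDC42, DNM2, PIP5K1A, PIP5K1C, PLD1 and WAS. They were 19.6% of its 51 entries. Phagosome held 9 (7.2%, against 1.44%), class I molecules with HGS, RAB7A and TFRC, and Viral carcinogenesis held 10 (8.0%, against 1.75%), class I molecules with CDC42, HRAS, MDM2 and SRC. By the rule every member has a KEGG annotation, which listed symbols at large need not have. The KEGG shares are therefore not like for like, and nothing is read from their differences. In the authors' deposited table these 4 terms had corrected p-values of 0.412, 0.288, 0.218 and 0.288. The term RNA binding held 8 members (6.4%, against 14.6%), CLTC, DNM1, HSPA1A, HSPA1B, HSPA8, NEDD4 and TFRC among them.

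**Figure D3:**
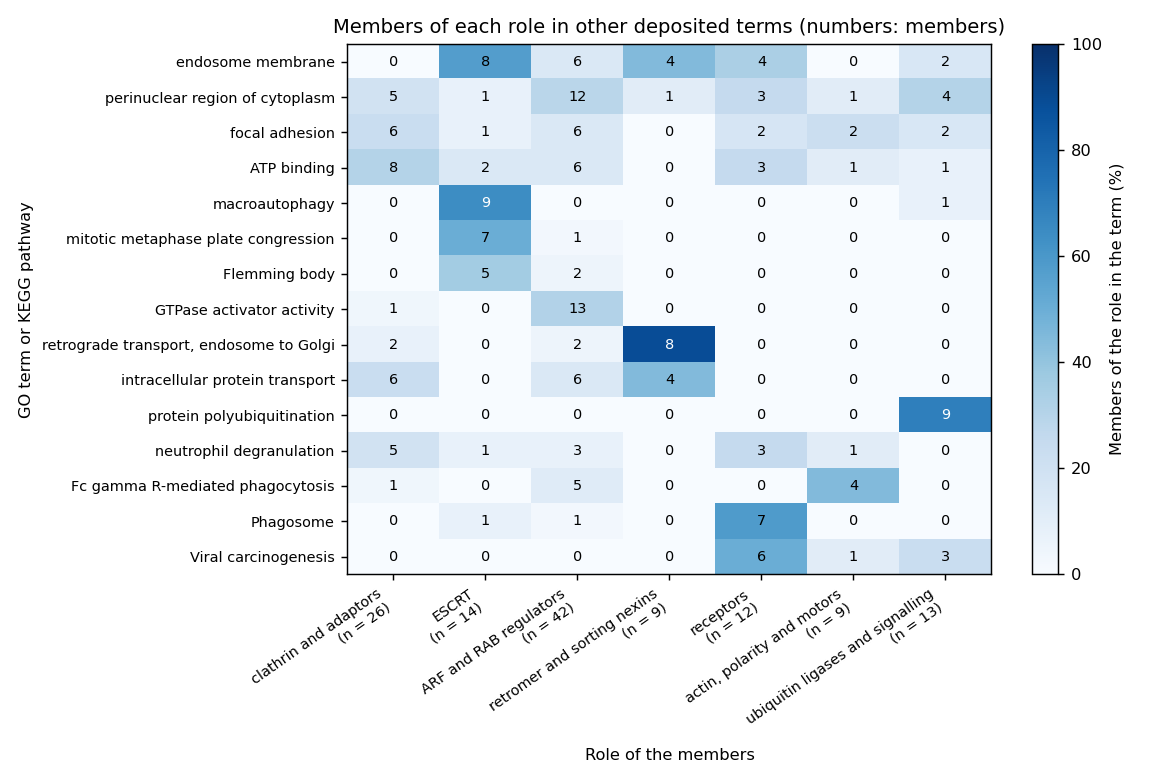
Members of each role (columns, with the number of symbols) in 15 other GO terms or KEGG pathways (rows); numbers count members and the colour gives their percent of the role. ESCRT genes were 9 of the 10 members in macroautophagy, the retromer group 8 of the 12 in retrograde transport, and the ubiquitin group all 9 in protein polyubiquitination.

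Genes of the members spanned a median of 42.5 kb of the genome, introns included (quartiles 16.0 and 86.4 kb, 117 matched symbols). The 95% interval of that median was 29.7 to 58.6 kb. The 115 protein-coding members alone had a median of 44.4 kb (32.8 to 59.5 kb). The other 5087 listed protein-coding genes had a median of 35.1 kb (quartiles 15.6 and 80.5 kb), which lies inside both intervals. The 14854 unlisted ones had 20.3 kb. These differences were not tested. Among members on their own identifier, the shortest were UBB (1.97 kb), HSPA6 (2.35 kb), HSPA1B (2.52 kb), CHMP1B (3.03 kb) and HLA-B (3.31 kb). The longest were CBLB (214 kb), GRK5 (252 kb), IGF1R (316 kb), SH3KBP1 (354 kb) and DNM3 (577 kb). AGAP2-AS1 (2.12 kb) and HSPA1A (2.4 kb), each on another gene's identifier, were also shorter than HSPA1B. Members in the family table had a median of 25.5 kb (22 symbols, 95% interval 12.9 to 58.6 kb). The other matched members had 48.7 kb (95 symbols, 32.8 to 61.4 kb). These intervals overlapped, which does not show equal lengths. Genes are no replicates, and the difference was not tested.

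Within the pathway, listed genes were not the longer ones by median. Pathway genes in the row had a median of 43.4 kb (quartiles 16.8 and 89.3 kb, 112 genes), and those without any listing had a median of 49.3 kb (quartiles 19.7 and 101 kb, 142 genes). The 95% intervals of these medians, 32.8 to 59.5 kb and 38.0 to 66.1 kb, overlapped, and the difference was not tested. Among ARF and RAB regulators the medians were 38.1 kb for listed and 75.8 kb for unlisted genes, and among receptors 15.1 kb and 42.0 kb. The order was the other way for retromer genes, with 54.9 kb for listed and 38.2 kb for unlisted genes, and for actin, polarity and motor genes, with 48.7 kb and 45.4 kb. The plot of gene length shows overlapping spans in every role.

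**Figure D4:**
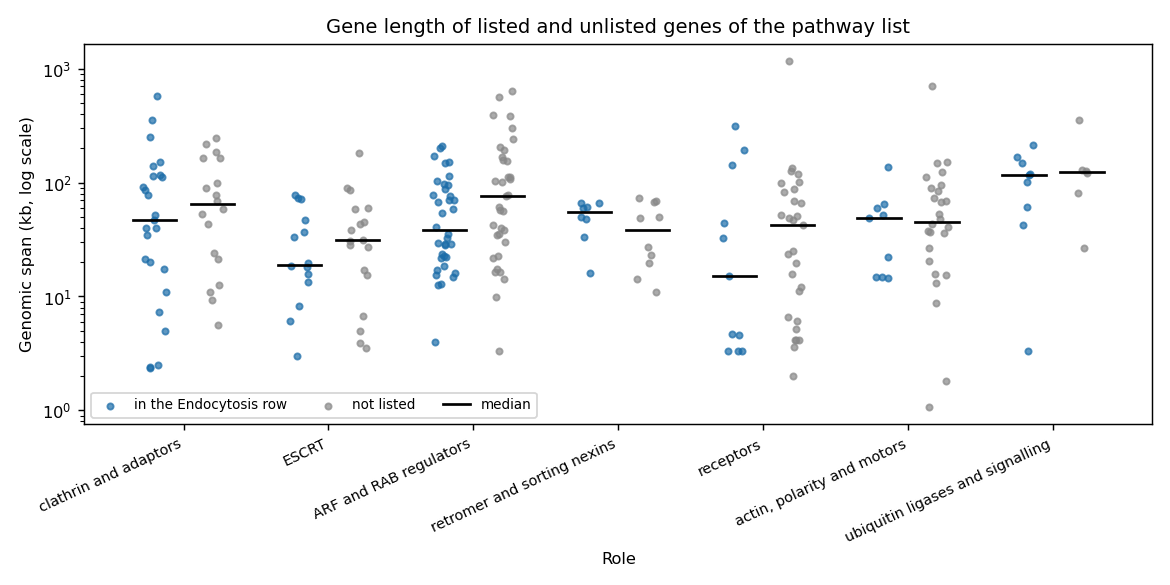
Genomic span in kb on a log axis for genes of the pathway list in the Endocytosis row (blue, 112 genes) and named in no table (grey, 142 genes), by role, with black bars at the medians. Spans overlap in every role; the medians of ARF and RAB regulators are 38.1 kb for listed and 75.8 kb for unlisted genes.

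Members on their own identifier lay on 20 chromosomes, with most on chromosome 17 (12 members, 10.6%, against 7.05% of listed protein-coding genes), and 11 each on chromosomes 1 and 19. Chromosome 6 held 9 (7.96%, against 4.88%), the class I genes and HSPA1B among them. Chromosomes 4, 13 and 21 held 0, against 2.86%, 1.56% and 1.1% of listed protein-coding genes (149, 81 and 57). These background shares are small, so nothing is read from the zeros, and no difference between chromosomes was tested.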

How the data were processed

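RNA from the ALKBH5 IP and the input of HL-60 cells was sequenced in paired reads with a stranded mRNA kit, 1 library each, per the labels' protocols. According to the submitters' processing notes hg38 was used as build. How reads were aligned, how peaks were called and whether IgG entered the calling is not given in the sources used here. Per term, the authors deposited, per the file headers, counts of input entries and background genes, a rich factor (a fold, the ratio of shares), a p-value with its corrected value, and a table pairing genes with families. The depth per library is unknown.

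Members were read from the Endocytosis entries. Symbols were matched to RefSeq (GRCh38.p14) by symbol, then by older symbols leading to 1 gene; 117 of 125 matched. A symbol stood on its own identifier when RefSeq gives that identifier to it or to its current symbol. Gene length is the RefSeq span. Intervals are exact Clopper-Pearson at 95%; median intervals use order statistics. Promoter windows were aligned globally (Biopython 1.88), and the motif search and alignment were tested on simulated data. Python 3.11.15, SciPy 1.17.1 and pandas 2.3.3 were used. No test was run between groups, since no value per library is given.

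The members and lists were chosen with earlier results of these data known. Roles of RUFY1, UBB and PML, and the subunit counts, were set after seeing the row. By rule every member is named (a few genes are not reported here), with up to 12 unlisted pathway genes per role in alphabetical order, the 10 GO terms and the KEGG pathways (10 or more members) holding most members, and 5 genes at each end of length. Other terms were picked out after the values were seen. Sequences were to be the pair of members most alike in protein. Proteins were not used here, so promoter pairs are shown, chosen after their identity was seen.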

Additional observations from a re-analysis of the deposited data

How the results depend on the processing

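Of 39 alternatives, 36 left the value within 1.5 times of a count or inside the interval of a share or median. Several of them could not differ, so this count says little about robustness. No written gene was named in the family table alone, so counts over all tables repeated those over GO and KEGG terms. Older symbols added genes in the retromer group only. The 3 alternatives that moved a value were these. Reading older symbols raised the retromer group from 4 to 8 of 19 genes, because the authors' symbols for the WASH genes are older ones. Asking for all 4 families lowered the share of members in the family table from 18.4% to 10.4%, with the share of all listed symbols at 12.6%. Counting only terms with a corrected p under 0.05 lowered the median of other terms per member from 7 to 3. The number of members was 125 by symbol, 115 by identifier, 117 by RefSeq match and 113 on their own identifier. The share in the family table was 17.9% without shared identifiers and 17.7% on own identifiers, and the median length ranged from 42.5 to 49.4 kb, highest outside the HLA and HSPA families. Alternatives by own identifier, outside those families and outside the term were chosen after seeing the data.

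The identity of proteins was not computed, since no protein sequences were used here. No paired analysis was possible because each group has 1 library and the tables hold no value per library. With depth unknown, a gene without a peak cannot be told apart from one that was not detectable.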
